A study of Mus musculus with 6 samples.

Results

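Macrophage identity and polarization genes were examined in subcutaneous CT26.WT tumors as 10 genes taken by symbol from the 55487 genes of the count table. The members were *Adgre1*, *Csf1r*, *Cd68*, *Nos2*, *Arg1*, *Mrc1*, *Cd163*, *Chil3*, *Retnla* and *Msr1*. All 10 were found, and 9 of them were among the 15114 genes that passed the filter on low counts, the exception being *Chil3*. CT26.WT is a carcinoma line from mouse colon, and all 6 tumors were grown from it under the skin of young male BALB/c mice labelled as wild type. The control group held 3 tumors from mice given PBS through the tail vein. The IFN-γ group held 3 tumors from mice given IFN-γ by the same route on alternate days, a treatment labelled IFN-gamma stimulation. RNA was sequenced from whole tumors, so the carcinoma cells and the host cells among them were measured together.

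Macrophages develop and survive under signals from the receptor CSF1R, and F4/80, the product of *Adgre1*, and CD68 are the proteins most used to recognize them in mouse tissue. IFN-γ together with microbial signals drives a classical state in which NOS2 turns arginine into nitric oxide. IL-4 and IL-13 act through STAT6 to drive an alternative state, in which ARG1 breaks arginine down to ornithine and the mannose receptor MRC1, the chitinase-like protein encoded by *Chil3* and the resistin-like protein encoded by *Retnla* are made. CD163 and MSR1 are scavenger receptors of macrophages, for hemoglobin bound to haptoglobin and for modified lipoproteins.

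Total counts per tumor ran from 15759300 to 17559680, and 0 reads in a tumor allowed, by counting error alone, at most 0.169 to 0.188 CPM (counts scaled to library size with TMM factors, the values printed throughout). With all 6 tumors, edgeR's quasi-likelihood test put 12 genes at a higher and 5 at a lower level after IFN-γ (adjusted p under 0.05). Without IFN-γ tumor 3 these were 381 and 112, so the members are given with and without this tumor. Leaving out any other tumor gave 4 to 7 higher and 2 to 4 lower. IFN-γ tumor 3 was thus singled out by its outcome, and adjusted p-values without it carry that limit. IFN-γ tumor 3 also held a summed 71.4 CPM over 8 keratinocyte markers, against 2.75 to 12.6 CPM in the other tumors. Of 10 markers of colon epithelium, *Krt20* was at 113 to 271 CPM in every tumor, while *Cdx2*, a defining factor of intestinal epithelium, had 0 reads in all 6 tumors and *Epcam* did not exceed 0.928 CPM. Nothing in the labels places same-numbered tumors in a shared batch, and p-values measure the spread between these tumors.

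Promoter sequences of 5 members were listed by RefSeq on GRCm38.p6, and 3 are shown. *Cd68* stands for the identity genes, *Mrc1* had groups that did not overlap, and *Retnla* varied most between tumors. The strand is that of the gene, minus for *Cd68* (chr11:69666171-69666420) and plus for *Mrc1* (chr2:14229164-14229391) and *Retnla* (chr16:48842359-48842550). Each begins 250 bases before the RefSeq start, and bases inside the gene as annotated by GENCODE are left off. Capitals mark matches, on either strand, to 3 motifs. These were the STAT6 element (TTC and GAA with any 4 bases between), the PU.1 core (GAGGAA) and a C/EBP element (TTGCNNAA).
Cd68: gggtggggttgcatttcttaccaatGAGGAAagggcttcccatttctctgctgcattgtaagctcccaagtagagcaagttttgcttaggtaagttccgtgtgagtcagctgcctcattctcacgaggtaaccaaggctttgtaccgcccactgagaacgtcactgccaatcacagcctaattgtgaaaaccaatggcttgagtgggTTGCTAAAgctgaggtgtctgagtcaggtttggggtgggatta
Mrc1: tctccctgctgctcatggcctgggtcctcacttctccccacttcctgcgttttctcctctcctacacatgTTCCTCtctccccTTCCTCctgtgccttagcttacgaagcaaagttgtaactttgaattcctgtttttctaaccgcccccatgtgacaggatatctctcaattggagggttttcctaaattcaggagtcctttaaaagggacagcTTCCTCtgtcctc
Retnla: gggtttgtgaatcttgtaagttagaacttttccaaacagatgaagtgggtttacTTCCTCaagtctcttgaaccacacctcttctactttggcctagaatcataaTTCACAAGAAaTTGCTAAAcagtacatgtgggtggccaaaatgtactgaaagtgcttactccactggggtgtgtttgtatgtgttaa
*Cd68* held a PU.1 match from 225 to 220 bases and a C/EBP match from 43 to 36 bases before the start. *Mrc1* held 3 PU.1 matches. *Retnla* held a PU.1 match, a STAT6 match from 145 to 136 bases and, beside it, a C/EBP match from 134 to 127 bases before the start. None of these matches overlapped another. The search covered the full 250 bases before each start, and among 32851 such windows the shares with a match were 5.85% for STAT6, 23.3% for PU.1 and 9.56% for C/EBP. The windows of *Cd163* and *Chil3* held none of the 3 motifs. A match is a string of letters and was not tested as a binding site.

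*Cd68*, which encodes a glycoprotein of macrophage lysosomes, was at 84.8, 85.8 and 92.1 CPM in control tumors 1, 2 and 3. The IFN-γ tumors, in the same order, held 114, 133 and 90.2 CPM. IFN-γ tumors 1 and 2 lay above every control, and IFN-γ tumor 3 lay within the control range. The gene lies on chromosome 11 from 69664213 to 69666153. Its log2 fold change was 0.36 with all 6 tumors (standard error 0.13, 95% interval 0.061 to 0.66, unadjusted p = 0.0239, adjusted p = 0.396, edgeR). Leaving out IFN-γ tumor 3, *Cd68* was called higher, at 0.49 on the log2 scale (standard error 0.087, adjusted p = 0.0253, edgeR), a 1.40-fold difference.

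*Adgre1* was at 181, 223 and 169 CPM in the controls and at 307, 284 and 147 CPM in the IFN-γ tumors. IFN-γ tumor 1 was the highest of all 6 for this gene and IFN-γ tumor 3 the lowest, so the groups overlapped fully. With all 6 tumors the log2 fold change was 0.36 (95% interval -0.20 to 0.93, adjusted p = 0.678, edgeR). *Adgre1* was called higher once IFN-γ tumor 3 was left out, at 0.62 (95% interval 0.35 to 0.89, adjusted p = 0.0326, edgeR), or 1.54-fold. It lies on chromosome 17 from 57358691 to 57483527.

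*Csf1r* was at 246, 292 and 277 CPM in the controls and at 349, 384 and 260 CPM in the IFN-γ tumors. The pattern was that of *Cd68*, with IFN-γ tumors 1 and 2 above every control and IFN-γ tumor 3 among the controls. *Csf1r* had a log2 fold change of 0.29 with all 6 tumors (95% interval -0.040 to 0.61, adjusted p = 0.543, edgeR). Without IFN-γ tumor 3 it was 0.42 (95% interval 0.21 to 0.64, adjusted p = 0.0507, edgeR), just outside the threshold. Exons of *Csf1r* share 873 bases, 15.1% of its exon length, with *Hmgxb3* on the opposite strand, which had 623 to 729 counts, and the strandedness of the counts is not given in the sources used here. The ligand genes of this receptor were both expressed. *Csf1* was at 162 to 195 CPM in the controls and 184 to 222 CPM in the IFN-γ tumors (log2 fold change 0.19, adjusted p = 0.58, edgeR; 0.27, adjusted p = 0.195 without IFN-γ tumor 3), and *Il34* at 40.0 to 50.6 and 41.0 to 47.0 CPM.

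**Figure D1:**
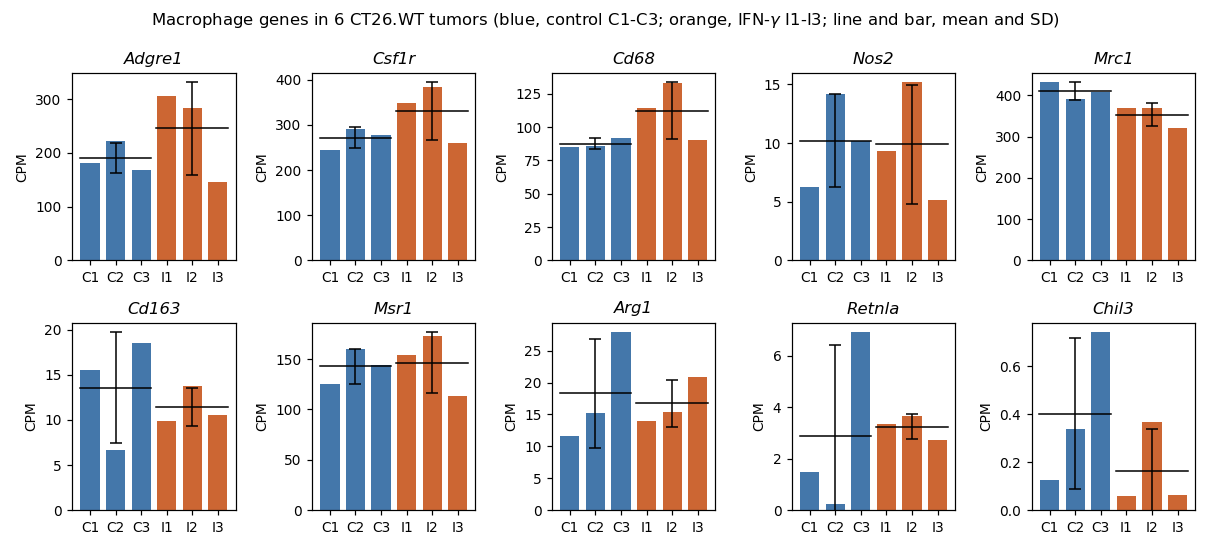
Level of each of the 10 genes in each tumor, in CPM with TMM factors, on axes from 0; C1 to C3 are control tumors 1 to 3 and I1 to I3 IFN-γ tumors 1 to 3, with the mean and SD of each group (n = 3) as lines and bars, cut at 0. Adgre1, Csf1r and Cd68 stand above every control in IFN-γ tumors 1 and 2 but not in IFN-γ tumor 3, while Mrc1 stands below every control in all 3 IFN-γ tumors.

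In all 6 tumors 0 of the 9 tested members passed the adjusted threshold in either direction, where 0.112% of all tested genes did (0.0794% higher and 0.0331% lower). At an unadjusted p under 0.05 in edgeR, *Cd68* was higher and *Mrc1* lower, 2 of the 9 members against 10.2% of all tested genes (5.74% higher and 4.44% lower). DESeq2 and limma-voom called 0 of the members as well. In the fit without IFN-γ tumor 3, 2 of 9 members were called, *Adgre1* and *Cd68*, both higher, against 3.18% of all tested genes (2.46% higher and 0.723% lower). Groups that did not overlap were then found for 4 of the 9 members, *Adgre1*, *Csf1r* and *Cd68* higher and *Mrc1* lower, against 33.7% of all tested genes (18.1% higher and 15.6% lower). The median log2 fold change of the 9 members was 0.038 with all 6 tumors and 0.25 without IFN-γ tumor 3, beside 0.0015 and -0.016 over all tested genes. In bulk tumors, the number of macrophages and the RNA per macrophage cannot be told apart.

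Markers of other cell types were summed in each tumor. The summed level of 9 T cell markers was 63.0 to 93.1 CPM in the controls, 118 and 141 CPM in the first and second IFN-γ tumor, and 47.4 CPM in IFN-γ tumor 3. For 6 natural killer cell markers the sums were 29.0 to 44.9, then 67.9 and 74.3, then 21.2 CPM, with *Klra8* at 0 reads in every tumor. For 8 dendritic cell markers they were 38.3 to 55.4, then 71.7 and 74.7, then 44.0 CPM. These 3 lists were thus above every control in the same IFN-γ tumors as the identity genes. The neutrophil sums, over 12 markers, were 48.1 to 91.3, then 63.2 and 68.7, then 47.9 CPM, with the defining markers *Ly6g* and *Elane* at 0 to 3 reads. Of 7 tested genes of that list, 1 was called higher without IFN-γ tumor 3, against 2.46% of all tested genes. This was the receptor gene *Csf3r* (edgeR, adjusted p = 0.0143, and 0.371 with all 6). The median log2 fold change of the list without IFN-γ tumor 3 was -0.17, with 2 of the 7 genes above 0. Over 6 B cell markers the sums were 8.38 to 13.8 CPM in the controls and 6.68 to 8.19 CPM in the IFN-γ tumors, all 3 lower. Of the 4 tested B cell genes, 1 had a log2 fold change above 0 with all 6 tumors. This was *Cd79b*, higher without overlap, at 3.665 to 4.06 CPM in the controls and 4.64 to 5.63 CPM in the IFN-γ tumors. *Pax5* was lower without overlap, at 1.94 to 3.16 and 0.247 to 1.34 CPM, beside 15.1% of all tested genes without overlap. Over 8 eosinophil and mast cell markers the sums were 238 to 336 CPM in the controls and 264 to 329 CPM in the IFN-γ tumors. The eosinophil genes *Prg2* and *Epx* were at 0 to 3 reads. The colon epithelium sums were 171 to 192, then 132 and 125, then 287 CPM, and most of each sum was *Krt20*, at 152 to 175, then 119 and 113, then 271 CPM. The part of these cells in the levels of the macrophage genes was not tested.

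*Nos2*, the enzyme that makes nitric oxide in classically activated macrophages, was at 6.25, 14.2 and 10.2 CPM in the controls. In the IFN-γ tumors it was at 9.35, 15.2 and 5.13 CPM. The highest and the lowest of the 6 values were both in the IFN-γ group, so the groups overlapped fully. *Nos2* had a log2 fold change of -0.045 (95% interval -0.97 to 0.88, adjusted p = 0.987, edgeR). Leaving out IFN-γ tumor 3, the estimate changed sign to 0.25 (95% interval -0.49 to 0.99, adjusted p = 0.785, edgeR).

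*Arg1*, the arginase of alternatively activated macrophages, was at 11.6, 15.3 and 28.0 CPM in the controls and at 13.9, 15.4 and 20.9 CPM in the IFN-γ tumors. Control tumor 3 stood highest, and the IFN-γ values lay inside the control range. *Arg1* had a log2 fold change of -0.13 with all 6 tumors (95% interval -0.84 to 0.58, adjusted p = 0.926, edgeR) and -0.33 without IFN-γ tumor 3 (adjusted p = 0.691). Without control tumor 3 it was 0.31 (adjusted p = 0.654). Because NOS2 and ARG1 use the same amino acid, the log2 ratio of *Nos2* to *Arg1* was taken within each tumor. It was -0.84, -0.11 and -1.42 in the controls, against -0.55, -0.017 and -1.93 with IFN-γ. In each group, tumor 2 had the ratio closest to parity and tumor 3 the one most toward *Arg1*. The group means differed by -0.042 (p = 1.0 by an exact two-sided permutation test, whose lowest possible p with 3 tumors a group is 0.1).

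*Mrc1*, the mannose receptor, was at 432, 391 and 407 CPM in the controls and 368, 369 and 322 CPM in the IFN-γ tumors. Every IFN-γ tumor, the third included, lay below every control. *Mrc1* was the only tested member whose groups did not overlap with all 6 tumors, 1 of 9, where the share over all tested genes was 15.1% in either direction, 7.62% higher and 7.5% lower. Its mean was 410 ± 21.01 CPM in the controls and 353 ± 27.2 CPM in the IFN-γ group (SD, n = 3 each). The log2 fold change was -0.22 (95% interval -0.41 to -0.022, unadjusted p = 0.033, adjusted p = 0.437, edgeR), so the gene did not pass the adjusted threshold. Without IFN-γ tumor 3 it was -0.16 (adjusted p = 0.358). The gene lies on chromosome 2 from 14229392 to 14332057. Lymphatic endothelium also makes this receptor, and its defining factor *Prox1* was at 0 to 0.451 CPM, while the sum of 4 lymphatic markers was 56.9 to 78.6 CPM in the controls and 40.6, 45.5 and 61.7 CPM after IFN-γ. Most of this sum was *Pdpn*, which fibroblasts also express, at 40.3 to 62.9 CPM in the controls and 30.8, 32.2 and 52.2 CPM after IFN-γ. Of the other lymphatic markers, *Flt4* was at 6.38 to 8.57 CPM in the controls and 5.75, 5.50 and 4.51 CPM after IFN-γ, without overlap. Its log2 fold change was -0.44 (adjusted p = 0.499, edgeR), and *Lyve1* overlapped between the groups. The part of these cells in *Mrc1* was not tested.

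*Msr1* was at 125, 160 and 144 CPM in the controls and at 154, 173 and 113 CPM in the IFN-γ tumors. IFN-γ tumor 2 was highest and IFN-γ tumor 3 lowest. The log2 fold change was 0.038 with all 6 tumors (95% interval -0.32 to 0.40, adjusted p = 0.965, edgeR) and 0.19 without IFN-γ tumor 3 (adjusted p = 0.477). *Cd163* was lower in abundance, at 15.6, 6.65 and 18.6 CPM in the controls and 9.87, 13.8 and 10.6 CPM in the IFN-γ tumors. Control tumor 2 was the lowest and control tumor 3 the highest of the 6, so the controls alone spanned 2.79-fold and enclosed the IFN-γ group. The log2 fold change of *Cd163* was -0.25 (95% interval -1.02 to 0.52, adjusted p = 0.854, edgeR). It was -0.21 without IFN-γ tumor 3 (adjusted p = 0.847), 0.036 without control tumor 3 and -0.58 without control tumor 2.

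**Figure D2:**
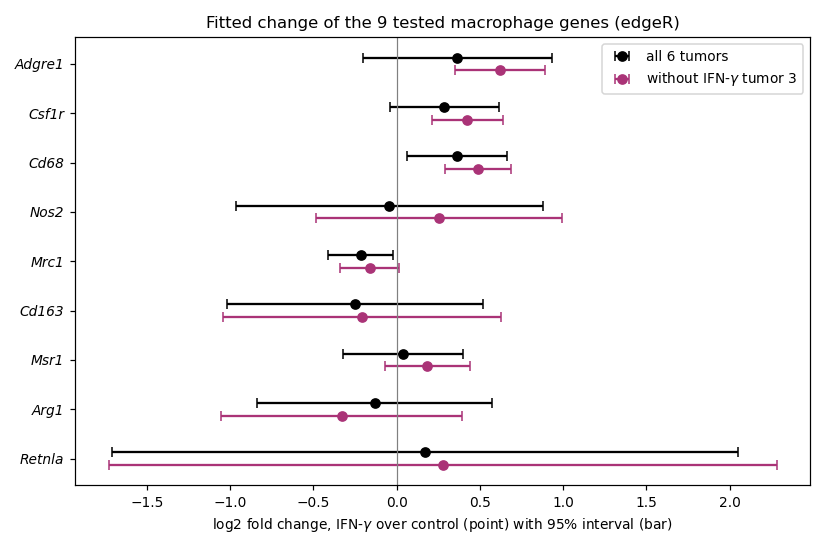
Log2 fold change of the IFN-γ group over the control group (horizontal axis; points) with 95% intervals (bars) for the 9 tested genes, from edgeR with all 6 tumors (black) and without IFN-γ tumor 3 (purple). The intervals of Adgre1, Csf1r and Cd68 lie above 0 without that tumor, that of Mrc1 lies below 0 with all 6 tumors, and those of Nos2, Arg1, Cd163 and Retnla span 0 in both fits.

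*Retnla* and *Chil3* are textbook genes of the alternative state in mice, and both were scarce. *Retnla* had 24, 4 and 121 counts in control tumors 1, 2 and 3 against 58, 60 and 44 counts with IFN-γ. The control group spanned 30.7-fold in CPM, from 0.226 to 6.91, and the IFN-γ group 1.35-fold, from 2.72 to 3.67. All 3 IFN-γ tumors lay between control tumors 1 and 3. The log2 fold change of *Retnla* was 0.17, with a 95% interval of -1.71 to 2.05 (adjusted p = 0.970, edgeR). This interval included differences of several fold in either direction. The estimate was 0.28 without IFN-γ tumor 3 (adjusted p = 0.922, edgeR). Without control tumor 3 it was 1.92 (adjusted p = 0.374), and without control tumor 2 it was -0.38 (adjusted p = 0.935). *Chil3* had 2, 6 and 13 counts in the controls, then 1, 6 and 1 with IFN-γ, 29 in all, and was too low for the filter. With no filter on low counts, edgeR gave a log2 fold change of -1.29 (95% interval -3.09 to 0.51, adjusted p = 0.778).

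Close relatives can share reads with these genes. *Chil4*, the nearest copy of *Chil3*, *Chia1* and *Retnlb* had 0 reads in every tumor. *Retnlg*, a resistin-like gene of neutrophils, was at 0.282 to 1.26 CPM in the controls and 0.062 to 0.348 CPM in the IFN-γ tumors. The other arginase gene, *Arg2*, was at 2.82 to 4.91 and 3.89 to 5.81 CPM (log2 fold change 0.29, adjusted p = 0.786, edgeR; 0.076, adjusted p = 0.936 without IFN-γ tumor 3). Of the other nitric oxide synthases, *Nos1* did not exceed 0.697 CPM, and *Nos3*, the enzyme of endothelium, was at 13.03 to 29.0 CPM in the controls and 8.53 to 14.0 CPM in the IFN-γ tumors (log2 fold change -0.83, adjusted p = 0.447, edgeR; -1.11, adjusted p = 0.139 without IFN-γ tumor 3). *Marco*, a scavenger receptor of the same class as *Msr1*, had 0 to 2 reads a tumor.

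Levels of different genes were compared per kilobase of merged exons. The means over the 6 tumors were 79.6 CPM per kilobase for *Cd68*, 67.5 for *Adgre1*, 59.9 for *Mrc1* and 52.2 for *Csf1r*, and the ranges of neighbors in this order overlapped. *Msr1* followed at 22.8 CPM per kilobase, with a range of 17.8 to 27.3 that lay apart from the genes before and after it. *Arg1* at 7.87, *Retnla* at 5.12, *Cd163* at 2.29 and *Nos2* at 2.28 CPM per kilobase came next, again with overlapping ranges between neighbors. *Chil3* was last at 0.173 CPM per kilobase, below the lowest value of *Nos2*. The members that vary least across tumors were among the abundant ones, with the highest level 1.34 times the lowest for *Mrc1* and 1.53 times for *Msr1*, against 2.96 times for *Nos2* and 30.7 times for *Retnla*. Control tumor 3 was highest for 4 of the 10 members, *Arg1*, *Cd163*, *Chil3* and *Retnla*. The same tumor held a summed 957 CPM over 8 skeletal muscle markers, against 147 to 513 CPM in the others, and the part of muscle in these members was not tested. IFN-γ tumor 2 was also highest for 4, *Csf1r*, *Cd68*, *Nos2* and *Msr1*.

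Members were also set against *Csf1r* of the same tumor. The log2 ratio of *Msr1* to *Csf1r* was -0.97, -0.87 and -0.95 in the controls, against -1.18, -1.15 and -1.20 with IFN-γ. These values lay close together within each group, and the groups did not overlap although *Msr1* itself overlapped. The log2 ratio of *Mrc1* to *Csf1r* was 0.82, 0.42 and 0.55 in the controls, against 0.076, -0.057 and 0.31 with IFN-γ, again without overlap. Among the 8 tested members other than *Csf1r*, these were the 2 whose ratios did not overlap, both lower in the IFN-γ group, where 13.9% of all tested genes had a ratio to *Csf1r* that was lower without overlap. With *Cd68* in place of *Csf1r*, the ratios of *Mrc1* and *Msr1* again did not overlap, 2 of 7 tested members against a share of 24.8% over all genes. With *Adgre1* in place of *Csf1r*, both overlapped, and 3.76% of all genes were lower without overlap. *Mrc1* and *Msr1* were singled out, and the 2 further denominators chosen, after these values were seen. *Nos2*, *Arg1*, *Cd163* and *Retnla* overlapped between the groups relative to each of the 3 identity genes.

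**Figure D3:**
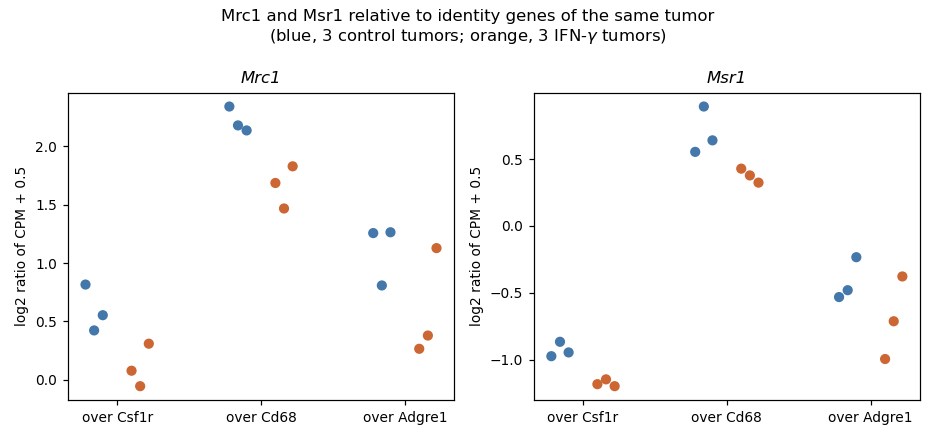
Log2 ratio of Mrc1 (left) and Msr1 (right) to Csf1r, Cd68 and Adgre1 of the same tumor (vertical axis, CPM plus 0.5); each point is 1 tumor. Relative to Csf1r and to Cd68 the 3 IFN-γ tumors lie below the 3 controls for both genes, and relative to Adgre1 the groups overlap.

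Other genes of the macrophage program were followed in 6 lists. With all 6 tumors 0 genes of any of these lists passed the adjusted threshold, as 0.112% of all tested genes did. In the lineage list, 21 of 26 tested genes had a log2 fold change above 0, with a median of 0.41. When IFN-γ tumor 3 was left out, 11 of 26 were called higher and 0 lower, with a median of 0.50, where 3.18% of all tested genes were called. Among the called genes were *Ccr2*, the chemokine receptor of inflammatory monocytes, *Fcgr1*, the high-affinity receptor for IgG, *Aif1*, *Cebpa* and the complement genes *C1qa*, *C1qb* and *C1qc*. *Ccr2* was at 102, 97.7 and 141 CPM in the controls and 262, 264 and 116 CPM after IFN-γ (log2 fold change 1.202 without IFN-γ tumor 3, adjusted p = 0.00964, edgeR; 0.91 with it, adjusted p = 0.361). *Lyz2*, the lysozyme of myeloid cells, was at 1593, 1814 and 2168 CPM and at 2582, 3463 and 1856 CPM, called without IFN-γ tumor 3 only (adjusted p = 0.0472, edgeR; 0.470 with all 6). *Apoe*, at 1063 to 1183 CPM in the controls and 1356 to 1542 CPM in the IFN-γ tumors, was above every control in all 3, with a log2 fold change of 0.37 (adjusted p = 0.222 with all 6 tumors, edgeR; 0.35, adjusted p = 0.0719 without IFN-γ tumor 3). With all 6 tumors, 7.62% of all tested genes were higher without overlap.

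The classical activation list had a median log2 fold change of 0.41 with all 6 tumors and 0.65 without IFN-γ tumor 3, where 5 of 20 tested genes were called higher and 1 lower. The 5 were *Slamf7*, *Gpr18*, *Cd86*, *Cd40* and *Irf5*, and the gene called lower was *Ptgs2*, the inducible cyclooxygenase. Over all tested genes, 2.46% were called higher and 0.723% lower in that fit. *Slamf7* was at 3.19, 3.72 and 4.74 CPM in the controls and 9.98, 12.0 and 3.59 CPM in the IFN-γ tumors (log2 fold change 1.49 without IFN-γ tumor 3, adjusted p = 0.015, edgeR; 1.13, adjusted p = 0.394 with all 6). *Ptgs2* fell from 121 to 153 CPM in the controls to 91.1 and 89.4 CPM in the first and second IFN-γ tumor (log2 fold change -0.56, adjusted p = 0.0327, edgeR; -0.41, adjusted p = 0.369 with all 6), and was at 119 CPM in IFN-γ tumor 3. *Cxcl9*, an IFN-γ-induced chemokine, was at 118, 290 and 210 CPM and at 466, 557 and 165 CPM (log2 fold change 1.30 without IFN-γ tumor 3, adjusted p = 0.0524, edgeR; 0.94, adjusted p = 0.517 with all 6), outside the threshold.

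The alternative activation list had a median log2 fold change of 0.017 with all 6 tumors and 0.052 without IFN-γ tumor 3. In the latter fit, where 3.18% of all tested genes were called, 1 of 18 tested genes of the list was called. This was *Clec7a*, the β-glucan receptor dectin-1, at 12.5 to 19.0 CPM in the controls and 30.4, 42.9 and 18.4 CPM in the IFN-γ tumors (log2 fold change 1.13 without IFN-γ tumor 3, adjusted p = 0.0247, edgeR; 0.88, adjusted p = 0.371 with all 6). With all 6 tumors 10 of the 18 had a log2 fold change above 0. Groups did not overlap for 1 gene higher, *Socs1*, and 2 lower, *Ccl17* and *Atp6v0d2*, against 15.1% of all tested genes. *Ccl17* (log2 fold change -0.70, adjusted p = 0.504, edgeR) and *Atp6v0d2* (-1.22, adjusted p = 0.422) did not exceed 4.13 CPM in any tumor. The IL-4 receptor gene *Il4ra* was at 108 to 117 CPM in the controls and 93.1 to 109 CPM in the IFN-γ tumors, and *Stat6* at 146 to 169 and 143 to 158 CPM. Among the polarizing cytokines, *Ifng* was at 0.438 to 1.31 CPM in the controls and 1.57, 2.50 and 0.309 CPM in the IFN-γ tumors. *Il4* and *Il13* had 0 to 4 reads a tumor. The receptor genes *Il10ra* (log2 fold change 0.83, adjusted p = 0.0123, edgeR) and *Il13ra1* (0.52, adjusted p = 0.0413) were called higher without IFN-γ tumor 3, but not with all 6 (0.62, adjusted p = 0.361, and 0.40, adjusted p = 0.384).

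**Figure D4:**
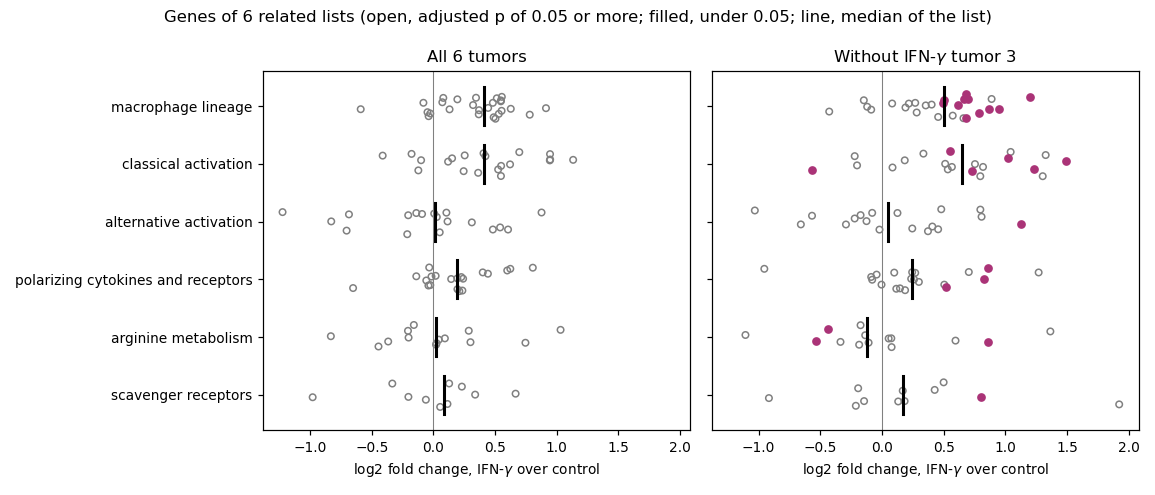
Log2 fold change (horizontal axis) of each tested gene of the 6 lists with all 6 tumors (left) and without IFN-γ tumor 3 (right); filled points passed an adjusted p of 0.05 in edgeR and the black line is the median of the list. The lineage and classical lists lie mostly above 0, at medians of 0.50 and 0.65 on the right, and the alternative list is centered near 0; no point on the left is filled.

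Around *Nos2* and *Arg1*, the arginine metabolism list had 1 gene called higher and 2 lower among 14 tested without IFN-γ tumor 3. Over all tested genes, 2.46% were called higher and 0.723% lower in that fit. *Gatm*, which uses arginine for creatine synthesis, was at 125, 154 and 127 CPM in the controls and 248, 247 and 186 CPM in the IFN-γ tumors (log2 fold change 0.86, adjusted p = 0.00964, edgeR). It was above every control in all 3 IFN-γ tumors, at 0.75 with all 6 (adjusted p = 0.132). *Odc1*, the first enzyme of polyamine synthesis, was at 454, 436 and 392 CPM and at 283, 312 and 347 CPM (log2 fold change -0.53, adjusted p = 0.0243 without IFN-γ tumor 3, edgeR; -0.45, adjusted p = 0.222 with all 6). The arginine transporter gene *Slc7a1* was at 254, 239 and 213 CPM and at 173, 177 and 198 CPM (log2 fold change -0.44, adjusted p = 0.0436 without IFN-γ tumor 3, edgeR; -0.37, adjusted p = 0.268 with all 6). Of 11 scavenger receptor and related genes tested beside *Msr1* and *Cd163*, *Cxcl16*, which encodes a membrane-bound chemokine that takes up oxidized lipoprotein, was the 1 called, at 0.81 without IFN-γ tumor 3 (adjusted p = 0.00888, edgeR; 0.67, adjusted p = 0.213 with all 6). The share called over all tested genes without that tumor was 3.18%. *Stab1* was at 378 to 413 CPM in the controls and 325, 363 and 255 CPM in the IFN-γ tumors, all 3 below the controls (log2 fold change -0.33, adjusted p = 0.408 with all 6, edgeR; -0.21, adjusted p = 0.251 without IFN-γ tumor 3). With all 6 tumors, 15.1% of all tested genes had groups that did not overlap.

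The genes outside the 10 with the most similar pattern over the 6 tumors were found by the root mean square difference of centered log2 values, among 10083 genes with a mean of at least 10 CPM. For *Adgre1* they were *Dock10*, *Parp14* and *Oasl2*, each within 0.072 to 0.075 on the log2 scale. *Parp14* was at 115, 153 and 125 CPM in the controls and 216, 206 and 97.5 CPM in the IFN-γ tumors. For *Nos2* they were *C6*, *Spon1* and *Fgr*, at 0.21 each. For *Arg1* they were *Gm15542*, *Hspb6* and *Rps3a2*, at 0.17 to 0.21. With 6 tumors, such a likeness describes these libraries only.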

How the data were processed

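RNA-seq libraries of 6 subcutaneous CT26.WT tumors were analysed, 3 control and 3 IFN-γ. The study's own account of this comparison counts fewer IFN-γ tumors than the labels do and does not name those used, so all labelled tumors were kept. The deposited table holds the authors' read counts, raw whole numbers for each gene with 1 column a tumor. The submitters' processing notes name HISAT2 and mm10. The counting program and its strand setting are not given in the sources used here, so reads shared with overlapping genes or close copies are uncertain. Gene positions and exon lengths came from GENCODE M21 (GRCm38), which held 99.5% of the identifiers.

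CPM values used TMM factors. All genes passing edgeR's default filter were fitted together (edgeR 4.0.16, R 4.3.3; quasi-likelihood test, Benjamini-Hochberg adjustment over all tested genes, threshold 0.05), and the standard error was the log2 fold change divided by the square root of F. Ratios used log2 of CPM plus 0.5 (SciPy 1.17.1 for the exact permutation test). DESeq2 1.42.0, limma 3.58.1 (voom), other scalings, no filter, a replicate block and leaving out each tumor were alternatives. The fits were tested on simulated counts. The floor was 3 counts.

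The 10 members and the lists, written by hand from general knowledge, were chosen with earlier results of these data known. Named from each list were the 4 genes of highest mean CPM and up to 6 called genes, and for some lists fewer are reported here. *Il34*, *Ifng*, *Il4*, *Il13*, *Ccl17*, *Atp6v0d2* and *Socs1*, and the markers named, were added after their values were seen. No libraries were duplicates (smallest chi-square per gene 6.17). Depth was 15759300 to 17559680 counts a tumor.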

Additional observations from a re-analysis of the deposited data

How the results depend on the processing

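No member passed the adjusted threshold with all 6 tumors under any of the other scalings, filters, tools or the replicate block. Leaving out 1 tumor at a time gave from 0 to 2 members higher, the 2 (*Adgre1* and *Cd68*) only without IFN-γ tumor 3, and 0 lower. For all genes these fits gave from 4 to 381 higher and from 2 to 112 lower. With all 6 tumors, library size only gave 7 higher, no filter 150 higher and 70 lower, DESeq2 122 and 73, and limma-voom 3 lower. The replicate block gave 5 higher and 2 lower. Same-numbered tumors did not deviate together (correlations -0.205, -0.0135 and -0.214), so the numbers were not taken as pairs. The cause of these shifts was not tested.

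Of 109 comparisons of the members' log2 fold changes with the reported fit, 99 kept direction and side of the threshold, 2 passed it and 8 reversed, all 8 when 1 tumor was left out. *Nos2* was 0.27 without control tumor 2 and 0.25 without IFN-γ tumor 3. *Arg1* was 0.31 and *Cd163* 0.036 without control tumor 3. *Retnla* was -0.13 without control tumor 1 and -0.38 without control tumor 2. *Msr1* was -0.050 without control tumor 1 and -0.10 without IFN-γ tumor 2. The log2 ratio of *Nos2* to *Arg1* differed by -0.45 to 0.51 between groups when 1 tumor was left out, with 0.30 without control tumor 2 and 0.51 without IFN-γ tumor 3; pairing by replicate number left it at -0.042. Over these fits *Nos2* ran from -0.50 to 0.27, *Arg1* from -0.37 to 0.31, *Cd163* from -0.58 to 0.036, *Retnla* from -0.38 to 1.92 and *Msr1* from -0.10 to 0.19. *Adgre1* ran from 0.18 to 0.62, *Csf1r* from 0.16 to 0.42 and *Cd68* from 0.22 to 0.49, each highest without IFN-γ tumor 3. Relative to *Csf1r*, *Mrc1* stayed lower by 0.38 to 0.59 and *Msr1* by 0.22 to 0.27. At this depth *Chil3*, with 29 counts in all, did not pass the filter.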

Other observations

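*Retn*, the gene of resistin, a hormone of mouse fat cells and the namesake of the family of *Retnla*, had groups that did not overlap, as did 15.1% of all tested genes. It was at 0.438, 0.113 and 0.514 CPM in the controls and at 1.04, 4.77 and 2.72 CPM in the IFN-γ tumors (log2 fold change 2.98, adjusted p = 0.222, edgeR; 3.002, adjusted p = 0.0675 without IFN-γ tumor 3). The summed level of 8 adipocyte markers was likewise 119 to 161 CPM in the controls and 173 to 225 CPM in the IFN-γ tumors, and its part in the level of *Retn* was not tested. *Lamp2*, a lysosomal membrane gene of the family of *Cd68*, was above every control in all 3 IFN-γ tumors, at 334 to 357 CPM in the controls and 429, 445 and 406 CPM in the IFN-γ group (log2 fold change 0.31, adjusted p = 0.248; 0.33, adjusted p = 0.0493 without IFN-γ tumor 3, edgeR). *Socs1*, an inhibitor of interferon signaling, was at 17.1 to 17.8 CPM in the controls and 25.3, 23.5 and 27.2 CPM in the IFN-γ tumors, with IFN-γ tumor 3 the highest (log2 fold change 0.54, adjusted p = 0.141, edgeR; 0.48, adjusted p = 0.0535 without IFN-γ tumor 3), in contrast to the identity genes, for which this tumor was among or below the controls.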
